A study of Mus musculus with 45 samples.

Results

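Ribosome biogenesis factors are the nucleolar proteins that cut, modify and fold the precursor ribosomal RNA and load it with ribosomal proteins. The 44 factors described here were taken from a fixed list of symbols, and all 44 had a row among the 13449 genes of the deposited expression table. They fall into 6 role groups: 15 members of the small-subunit processome, 6 late maturation factors of the 40S subunit, 11 processing and assembly factors of the 60S subunit, 3 core proteins of box C/D and 3 of box H/ACA small nucleolar ribonucleoproteins (snoRNPs), and 6 abundant nucleolar proteins with several functions.

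The mRNA of these factors was measured by poly(A) RNA sequencing of mouse fetal liver at E15.5. VavCre females, whose Cre recombinase is driven by the blood-cell promoter of Vav, had been mated with males homozygous for a floxed allele of Rpl5 (large subunit) or Rps19 (small subunit), so every fetus carried 1 floxed allele. The 4 genotypes were Rpl5flox/+, VavCre Rpl5flox/+, Rps19flox/+ and VavCre Rps19flox/+. The floxed fetuses without Cre were the controls, and no library with VavCre alone was analysed here. Liver homogenates were held for 15 min in 25 µg/mL emetine, which stalls ribosomes on mRNA. Kit+ cells were drawn with magnetic beads, Ter119+ cells were then drawn from the remainder, and cells of 1 genotype were pooled before lysis and a sucrose gradient. RNA from the cytoplasm and polysome fractions of 24 pools gave 45 libraries in 16 groups. Each cytoplasm group had 3 libraries. The polysome groups had 3 as well, except that Rpl5flox/+ Ter119+ cells had 2 and VavCre Rpl5flox/+ Kit+ cells had 1.

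Kit marks stem and progenitor cells, and Ter119 marks maturing red cell precursors. Ribosome synthesis begins with RNA polymerase I transcription, after which the small-subunit processome folds the 5' part of the precursor and the snoRNPs direct methylation and pseudouridylation. The pre-40S and pre-60S particles then part and are matured by separate sets of factors. Progenitors are rich in these factors, and red cell precursors lose the nucleolus as they mature. Loss of 1 copy of RPS19 or RPL5 causes Diamond-Blackfan anaemia in humans.

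Many genes of this pathway carry the E-box CACGTG, the site bound by MYC with MAX, near their start. The RefSeq promoter table of GRCm38.p6, which holds 250 bases before to 50 after a start, had an entry for 37 of the 44 members, and 11 of the 37 (29.7%) contained the letters CACGTG. The same letters were found in 16.7% of 84 other ribosome biogenesis genes and in 11.4% of 10587 genes of the expression table with an entry. They were found in 8.09% of all 27025 genes in the RefSeq promoter table. CACGTG is its own reverse complement, so 1 search covers both strands, and no other motif was searched. In 3 members it lay before the start and in 8 after it. Windows of at most 30 bases, written 5' to 3' on the strand of the gene with CACGTG in capitals, are shown for members whose values are given in full. A match describes these letters and was not tested as a binding site.
Imp4 (chr1:34439696-34439725, + strand, first base of the motif 121 bases before the start): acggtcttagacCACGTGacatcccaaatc
Nop2 (chr6:125131811-125131840, + strand, 60 bases before): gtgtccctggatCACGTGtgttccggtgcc
Utp4 (chr8:106893643-106893672, + strand, base 16 of the transcript): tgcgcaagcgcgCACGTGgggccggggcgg
Pno1 (chr11:17211540-17211564, - strand, base 38 of the transcript): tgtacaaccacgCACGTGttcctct
Mybbp1a (chr11:72441355-72441376, + strand, base 41 of the transcript): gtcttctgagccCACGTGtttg

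Cytoplasm libraries held 22.9 to 70.1 M reads in Kit+ cells and 45.0 to 123 M in Ter119+ cells, and polysome libraries held 1.01 to 39.8 M, with 4 of 21 under 2 M. Values are normalized counts, meaning reads divided by the size factor of the library. They compare 1 gene across libraries and do not rank genes, since they are not divided by length. In Kit+ cytoplasm, Rpl5 was 1046 ± 100.4 in Rpl5flox/+ and 531 ± 81.3 in VavCre Rpl5flox/+ libraries (SD, n = 3 each). A lower Rpl5 was not particular to that line, being 643 ± 135 with VavCre Rps19flox/+ against 965 ± 89.6 in Rps19flox/+ Kit+ cytoplasm, without overlap. In Ter119+ cytoplasm the VavCre Rpl5flox/+ label went with more Rpl5 than their controls, 499.9 ± 47.0 against 368 ± 83.6, which goes against the label. The highest control, 459, was above the lowest labelled library, 455, so these groups overlapped. Cdkn1a, also read as a check, was 7918 ± 456 in the same labelled libraries against 135 ± 4.74 in their controls. In Ter119+ cytoplasm of the Rps19 line it was 11119 ± 229 against 119 ± 23.1. Rps19 was higher too in the Ter119+ cytoplasm libraries labelled VavCre Rpl5flox/+, at 24291.5 ± 180.2 against 11545 ± 1544 in their controls. Why Rpl5 was higher was not tested. The mean of Rps19 was lower with VavCre Rps19flox/+ in both cell types, 12939.5 ± 1409 against 18037 ± 1985 in Kit+ and 12023 ± 1513 against 13842 ± 1331 in Ter119+ cytoplasm. In Ter119+ cytoplasm these groups overlapped, the highest mutant library being at 13710 and the lowest control at 13048. The cells drawn by the 2 kinds of beads differed in the named markers. In controls the summed level of 4 progenitor markers was 3616 to 4744 in Kit+ and 254 to 609.9 in Ter119+ cytoplasm, and that of 6 erythroid markers was 86630 to 152070 and 7.36e+06 to 1.81e+07. Summed over 11 hepatocyte markers, the levels were 3725 to 18465 and 7082 to 40246, so hepatocyte mRNA was present in both.

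**Figure D1:**
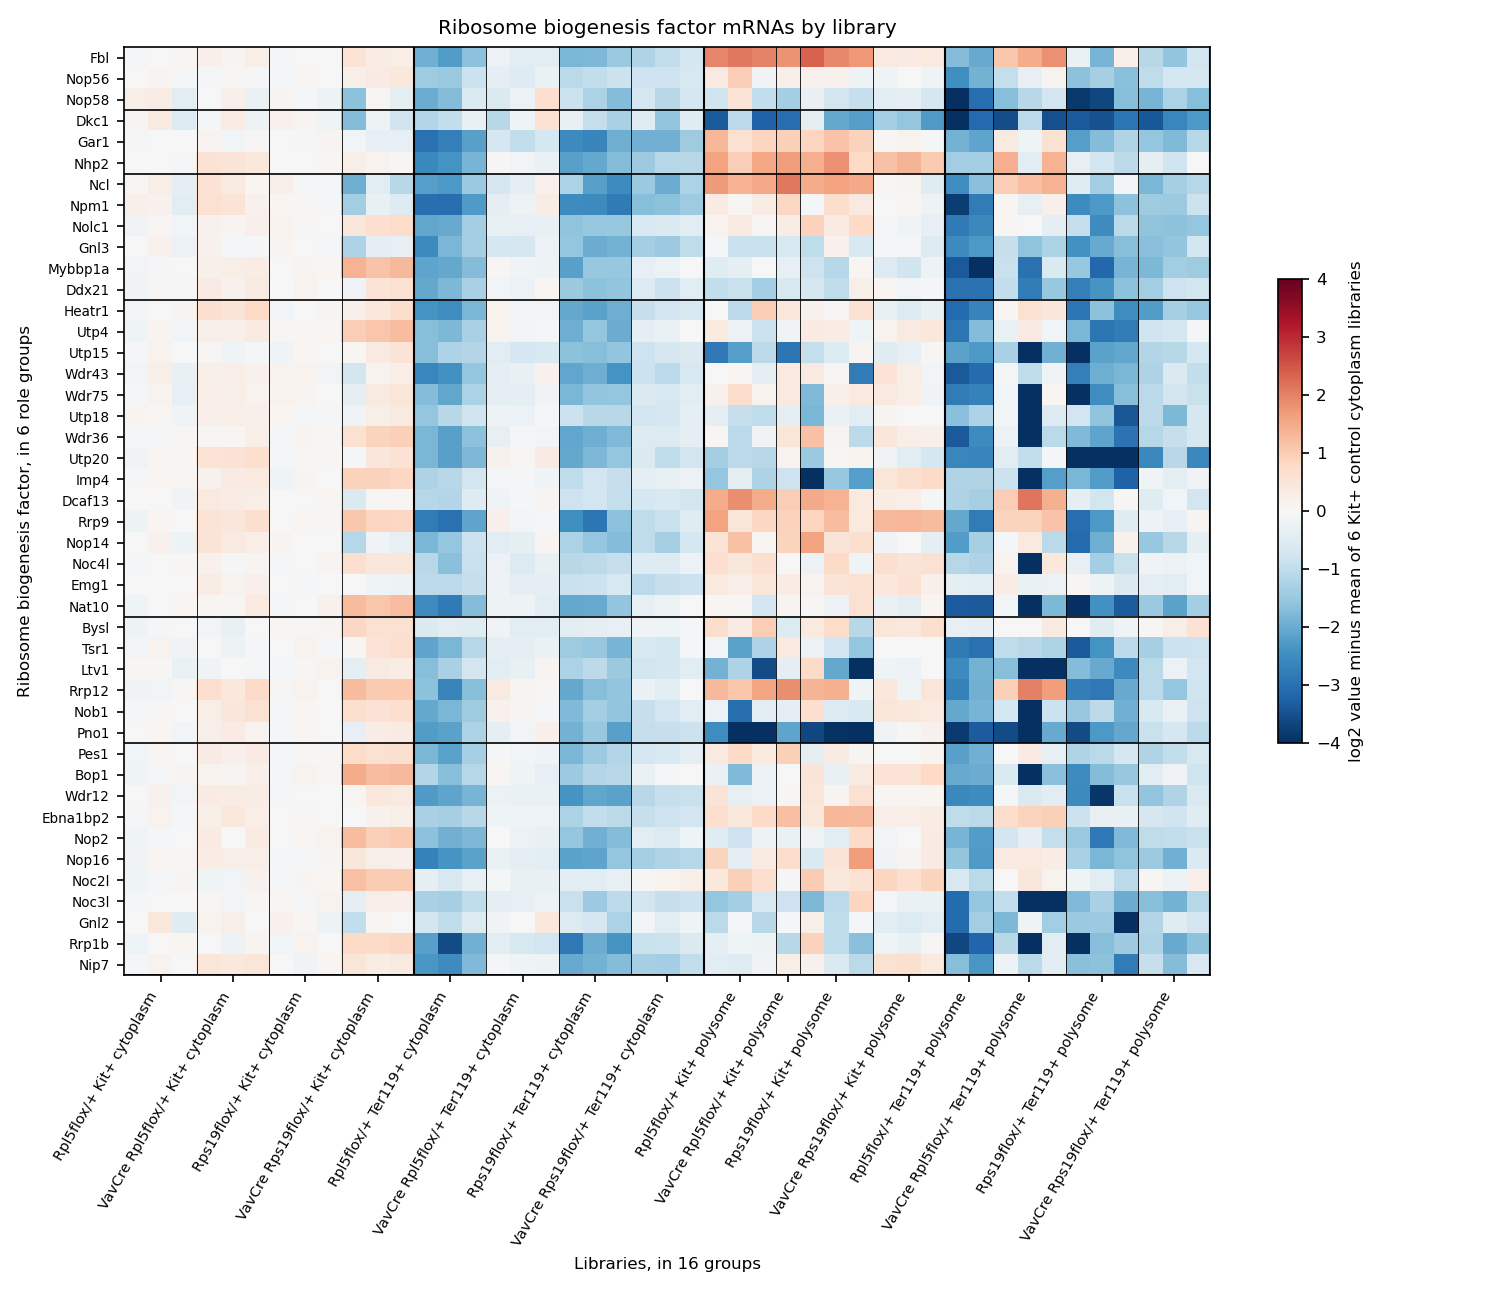
Colour plots the log2 level of each of the 44 factors (lines, ordered by role) in each of the 45 libraries (columns, by group) as the difference from the mean of the 6 control Kit+ cytoplasm libraries, with the scale saturating at 4 in either direction. Control Ter119+ columns are the lowest, and in cytoplasm the Ter119+ columns labelled VavCre Rpl5flox/+ are close to the Kit+ ones.

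The first comparison asked how the factors differ between the cell types of control livers. All 44 fell from Kit+ to Ter119+ cytoplasm, by a median log2 difference of -1.67 (range -2.71 to -0.43), while the median over all 10867 genes tested was -0.13. Of all genes 42.8% were called lower and 35.9% higher (limma, adjusted p under 0.05, 6 libraries against 6). For 43 of the 44 no Ter119+ control library reached any Kit+ control library, a pattern that 32.6% of all genes showed. All 11 hepatocyte and all 6 macrophage markers rose in this comparison (median 1.04 and 2.37), while all 5 B-lymphoid and 5 of 6 granulocyte and monocyte markers fell, and their part in the result was not tested. In bulk RNA, fewer cells of a type and less RNA per cell cannot be told apart.

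The drop was deepest for Npm1, the nucleolar chaperone nucleophosmin. Its normalized counts were 24383, 23800.3 and 15694 in Rpl5flox/+ and 22187, 22045 and 19899 in Rps19flox/+ Kit+ cytoplasm, against 2619, 2529 and 4333 and 3673, 3575 and 2981 in Ter119+ cytoplasm. Every Kit+ control value was above every Ter119+ control value, and the log2 difference was -2.71 ± 0.14 (SE), adjusted p = 1.01e-10. Nucleolin (Ncl), which binds precursor rRNA and chromatin of the rRNA genes, went from 13240.5, 14586 and 9524 and 14444, 12164 and 11936 to 2692, 2561 and 4464 and 5179, 2745 and 2175. These groups did not overlap either, and the log2 difference was -1.99 ± 0.19 (SE), adjusted p = 1.31e-07. Fibrillarin (Fbl), the methyltransferase of box C/D snoRNPs, went from 4410.2, 4536 and 4902 and 4499, 4694 and 4669.9 to 1212, 979.6 and 1467 and 1279, 1323 and 1656, again without overlap (log2 difference -1.81 ± 0.10 (SE), adjusted p = 2.23e-10).

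In the remaining roles the member with the smallest adjusted p was Wdr12 of the 60S factors, which forms the PeBoW complex with Pes1 and Bop1. It went from 1299, 1470.00 and 1219 and 1286, 1343 and 1298 to 260.4, 293 and 355 and 244, 299 and 285 (-2.14 ± 0.09 (SE), adjusted p = 1.33e-11). The H/ACA protein Nhp2 went from 2451, 2495 and 2389 and 2486, 2534 and 2625 to 405, 466 and 673 and 543, 593 and 743 (-2.13 ± 0.11 (SE), adjusted p = 1.60e-10). Both cell types held a narrow range for these genes, and the ranges were far apart. Nob1, the nuclease that makes the final cut of the small-subunit rRNA, went from 818, 883 and 877 and 828, 919 and 845 to 196, 233 and 312 and 243, 323 and 278 (-1.67 ± 0.11 (SE), adjusted p = 1.79e-09). Heatr1, of the subcomplex that binds the precursor first, went from 719.7, 786 and 841 and 722, 774 and 842 to 136, 129 and 207 and 176, 165 and 189 (-2.14 ± 0.11 (SE), adjusted p = 1.32e-10). Neither gene had a Ter119+ control library near its Kit+ range.

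Other members with differences under -2.1 came from several roles. They were the H/ACA proteins Gar1 (-2.50) and Nhp2 (-2.13), the U3 snoRNP protein Rrp9 (-2.48), and the 60S factors Rrp1b (-2.48), Nop16 (-2.17) and Wdr12 (-2.14). Among small-subunit processome members Wdr43 (-2.17), Heatr1 (-2.14) and the RNA acetyltransferase Nat10 (-2.12) were also in this range. The shallowest were Noc2l (-0.43 ± 0.08, SE), Bysl (-0.44 ± 0.07), Dkc1 (-0.84 ± 0.19), Dcaf13 (-0.90 ± 0.11), Emg1 (-0.91 ± 0.08) and Gnl2 (-0.79 ± 0.16). Of 99 further pathway genes from a wider list, 84 fell and 5 rose (median -1.17). Sdad1 (-2.63), Rsl24d1 (-2.46) and Naf1 (-2.37) fell furthest, while Sbds (0.87), which helps to release an anti-association factor from the 60S subunit, Rcl1 (0.58) and the kinase Riok1 (0.44) rose.

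Bysl, Dkc1 and Noc2l each overlap another gene of the table in the annotation, as do 10 more members, and the strand used in counting is not given in the sources used here. Their neighbours had far more reads in Ter119+ controls: the mean in Rpl5flox/+ Ter119+ cytoplasm was 22778 for Ccnd3, which overlaps Bysl (837 ± 32.8), 20837 for Mpp1, which overlaps Dkc1 (670.1 ± 233), and 6374 for Samd11, which overlaps Noc2l (1705 ± 186). The part of such reads in the values of these 3 members was not tested, so their levels in Ter119+ cells are uncertain.

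On polysomes the same step was seen for 33 members, with none higher (median -2.12, all genes 0.56), and 7.33% of 10512 genes were called lower there. Groups stood apart for 29 members, against 5.84% of all genes. Nat10 had the largest difference, with 480.3, 855 and 865 and 852, 704 and 1284 in Kit+ against 67.1 and 69.0 and 0, 143 and 68.8 in Ter119+ polysomes. Its groups were apart by a log2 difference of -3.80 ± 0.75 (SE), adjusted p = 0.000929, but 1 of the 5 Ter119+ libraries had 0 reads, so the size is imprecise. Fbl, with values of 18148, 17838 and 19990.1 and 23844, 17436 and 15510.3 against 1122 and 1365 and 3801, 1260.4 and 5368, differed by -3.20 ± 0.33 (SE), adjusted p = 8.86e-07. Npm1 had 25825, 26741 and 22199 and 20417, 34219 and 27077 against 3039 and 1500.1 and 3653, 4312 and 6696 (-2.95 ± 0.26 (SE), adjusted p = 1.55e-07). All Ter119+ control polysome libraries were under all Kit+ ones for both. The leading members of the remaining roles were Gar1 (-2.81 ± 0.28), Rrp12 (-3.51 ± 0.46), Rrp9 (-3.04 ± 0.49) and Wdr12 (-2.70 ± 0.48, SE). Pno1, Imp4 and Ltv1, which had few reads on control polysomes, were not called, at 1.64 ± 1.12, 0.59 ± 0.87 and 0.25 ± 1.08 (SE).

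**Figure D2:**
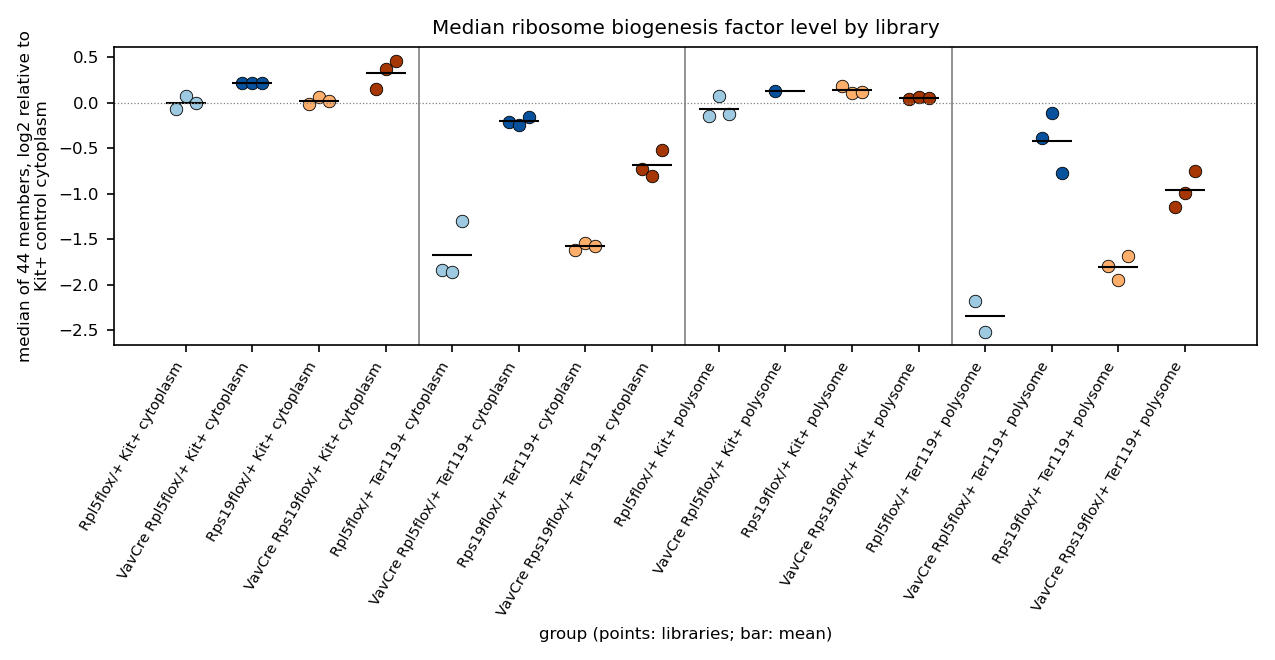
The vertical axis plots, for each library (points, in 16 groups of genotype, cell type and fraction), the median over the 44 factors of the log2 difference from control Kit+ cytoplasm. Control Ter119+ cytoplasm libraries lie between -1.86 and -1.31, those labelled VavCre Rpl5flox/+ between -0.24 and -0.16, and those labelled VavCre Rps19flox/+ between -0.80 and -0.52.

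In Ter119+ cytoplasm the factors were higher in the libraries labelled VavCre Rpl5flox/+ than in Rpl5flox/+ controls. 41 of the 44 rose and none fell, with a median log2 change of 1.58 (range 0.16 to 2.68) against 0.16 over all 10939 genes. Many other genes moved as well: 35.3% of all genes were called higher and 30.1% lower. The groups did not overlap for 43 members, as for 39.3% of all genes. All 15 small-subunit processome members, all 6 multifunctional nucleolar proteins and all 3 C/D proteins rose, with 10 of 11 60S factors, 5 of 6 late 40S factors and 2 of 3 H/ACA proteins. Summed over the 44 factors, reads made up 0.0489%, 0.0335% and 0.102% of the control libraries and 0.422%, 0.354% and 0.555% of those labelled VavCre Rpl5flox/+. As a sum of normalized counts the mean went from 27717 ± 6596 to 84051 ± 9806 (SD, n = 3 each), a smaller relative rise than that of the share of reads.

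Npm1 rose furthest. The libraries labelled VavCre Rpl5flox/+ had 16137, 18358 and 25972 normalized counts, against 2619, 2529 and 4333 in controls. The lowest of the former was far above the highest of the latter, and the log2 change was 2.68 ± 0.21 (SE), adjusted p = 2.25e-07. Ncl values of 7883, 9566 and 13988 stood against 2692, 2561 and 4464, a change of 1.69 ± 0.31 (SE), adjusted p = 0.000324. Fbl values of 3961, 3422 and 3382 stood against 1212, 979.6 and 1467, a change of 1.56 ± 0.17 (SE), adjusted p = 3.24e-06. Neither overlapped. For Ncl the spread within each group was wide, with replicate 3 the highest of both, and Fbl was tighter.

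Within the small-subunit processome, Heatr1 had 861, 726 and 719 against 136, 129 and 207 in controls (2.21 ± 0.17 (SE), adjusted p = 2.15e-07). Rrp9 had 906, 726 and 745 against 102, 87.0 and 173 (2.62 ± 0.29 (SE), adjusted p = 3.86e-06). The means of 769 ± 79.8 and 792 ± 98.8 lay within 1 SD of those in control Kit+ cytoplasm, 782 ± 60.9 and 775 ± 77.3 (SD, n = 3 each). Utp20 (2.11), Nat10 (2.07) and Wdr43 (2.04) also rose by over 2, and the smallest changes of this role were Emg1 (0.70), the methyltransferase of small-subunit rRNA, and Utp15 (0.78).

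Among late 40S factors, Nob1 had 966, 935 and 820.1 against 196, 233 and 312 (1.83 ± 0.18 (SE), adjusted p = 1.74e-06). Rrp12 changed by 2.16 and Pno1, the partner of Nob1, by 1.77. Among 60S factors, Wdr12 had 1105, 1094 and 1083 against 260.4, 293 and 355 (1.81 ± 0.14 (SE), adjusted p = 1.78e-07). Its partners Pes1 and Bop1 changed by 1.66 and 1.21. Nip7 (2.06) and Nop16 (2.05) rose by over 2. The H/ACA protein Nhp2 had 2578, 2298 and 2089.99 against 405, 466 and 673 (2.17 ± 0.18 (SE), adjusted p = 4.15e-07), and its partner Gar1 changed by 1.83.

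The 3 members that did not pass were Bysl (0.16 ± 0.12 (SE), adjusted p = 0.248), Noc2l (0.23 ± 0.12 (SE), adjusted p = 0.100) and Dkc1 (0.59 ± 0.41 (SE), adjusted p = 0.220). Their overlapping neighbours named above fell, with log2 changes of -1.39 for Ccnd3, -1.50 for Mpp1 and -3.10 for Samd11. Nat10, which was called, also overlaps a gene with more reads, Caprin1, at a mean of 4079 against 159 for Nat10 in these controls. For Dkc1 the 3 libraries labelled VavCre Rpl5flox/+ held 520.2, 1022 and 1765 and the controls 501, 573 and 936, so the groups overlapped. Of the 99 further pathway genes 75 rose and 4 fell (median 0.98). Sdad1 (2.27), Rrs1 (2.19) and Mdn1 (2.19) rose furthest and Sbds (-0.70), Rcl1 (-0.68) and Ddx24 (-0.60) fell furthest. Sbds and Rcl1 thus moved against the other genes both here and between the control cell types.

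Markers of other cells moved with this result. The 4 progenitor markers all rose, with a summed level of 254 to 609.9 in controls and 2613 to 2641 with the VavCre Rpl5flox/+ label, and Kit itself went from 27.0, 25.7 and 83.4 to 759, 721 and 852. The 6 erythroid markers all fell (7.36e+06 to 1.81e+07 against 2.16e+06 to 3.72e+06), and 5 of 6 granulocyte and monocyte markers rose (4785 to 8383 against 29772 to 61322). No marker of these lists was at 0. The part of these shifts in the rise of the factors was not tested, and Rpl5 in these libraries goes against the label.

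**Figure D3:**
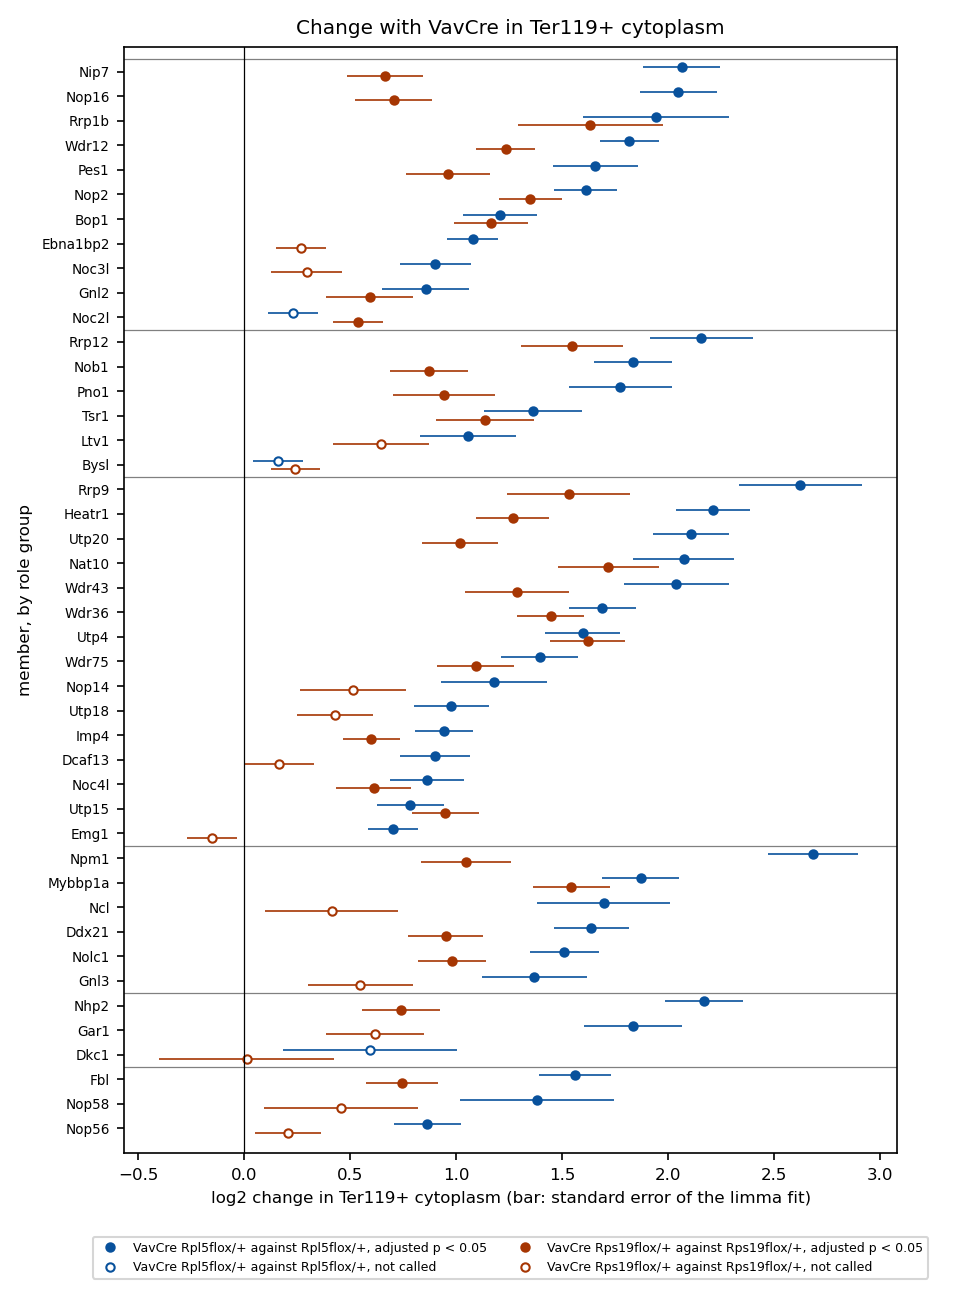
Points plot the log2 change of each of the 44 factors in Ter119+ cytoplasm with its SE, for the libraries labelled VavCre Rpl5flox/+ and for VavCre Rps19flox/+, each against its own controls (n = 3 each). The Rpl5 point is the larger for 40 of the 44, with Npm1 at 2.68 and 1.05.

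In Ter119+ cytoplasm of the Rps19 line 30 members rose and none fell, with a median log2 change of 0.81 against -0.03 over all genes. Only 12.5% of all genes were called higher in this comparison and 13.3% lower. Mutant and control libraries did not overlap for 38 members, against 21% of all genes, and only Emg1 (-0.15 ± 0.12, SE) had a negative value. The summed share rose from 0.0776%, 0.0747% and 0.0746% of reads to 0.165%, 0.170% and 0.200%, and the sum of normalized counts from 30269 ± 1017 to 50891 ± 5531 (SD, n = 3 each). By role, 11 of 15 processome members, 9 of 11 60S factors, 4 of 6 late 40S factors and 4 of 6 multifunctional proteins rose, but 1 of 3 in each snoRNP class, namely Fbl and Nhp2.

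Nat10 rose furthest, with 661, 724 and 846 normalized counts against 188, 195 and 269.6 in controls (1.72 ± 0.24 (SE), adjusted p = 0.000300). Utp4 had 696, 754 and 929.5 against 225, 305 and 217 (1.62 ± 0.18 (SE), adjusted p = 6.83e-05). The rRNA methyltransferase Nop2, a 60S factor, had 994, 930.1 and 1199 against 457, 346 and 396 (1.35 ± 0.15 (SE), adjusted p = 6.85e-05). In each of the 3 the lowest mutant library was above the highest control by a wide margin. Mybbp1a, a nucleolar regulator of RNA polymerase I transcription, had 2759, 2971 and 3488 against 757, 1218 and 1216 (1.54 ± 0.18 (SE), adjusted p = 9.46e-05), and Rrp12 had 562, 495 and 689 against 152, 199 and 218 (1.55 ± 0.24 (SE), adjusted p = 0.000675). Rrp1b (1.63) and Rrp9 (1.53) rose by similar amounts.

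The abundant nucleolar proteins moved less than in the Rpl5 line. Npm1 had 6505, 6779 and 7869 against 3673, 3575 and 2981 (1.05 ± 0.21 (SE), adjusted p = 0.00326) and Fbl 2003, 2336 and 2842 against 1279, 1323 and 1656 (0.74 ± 0.17 (SE), adjusted p = 0.00643). Both sets of groups were apart. Nhp2 had 898, 1119.99 and 1143 against 543, 593 and 743 (0.74 ± 0.18 (SE), adjusted p = 0.00995). Ncl was not called, with 4427, 3179 and 5201 against 5179, 2745 and 2175 in groups that overlapped through control replicate 1 (0.41 ± 0.31 (SE), adjusted p = 0.356).

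Markers of other cells moved here too. The summed progenitor markers were 363 to 425 in controls and 735 to 1020.3 in VavCre Rps19flox/+ libraries, with 2 of 4 called higher and 2 lower, and Kit went from 68.0, 54.0 and 3.54 to 363, 230.1 and 332. Of 6 erythroid markers 1 fell (9.00e+06 to 9.62e+06 against 5.44e+06 to 5.86e+06). All 6 macrophage markers fell (1176 to 3669 against 487 to 827), with 3 of 5 B-lymphoid (99.1 to 175 against 7.26 to 21.4) and 2 of 3 megakaryocyte markers (398 to 807 against 289 to 375), as did 4 of 6 granulocyte and monocyte markers (4057 to 6412 against 1585 to 2715). Their part in the result was not tested. Of the 99 further pathway genes 45 rose and 1 fell (median 0.44), Nle1 (1.46), Nol6 (1.32) and Sdad1 (1.27) rising furthest and Sbds being the one that fell (-0.44).

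The lines were compared directly in Ter119+ cytoplasm as the Rpl5 change minus the Rps19 change. 17 members had a larger change in the Rpl5 line and none a smaller one (median difference 0.63, all genes 0.10). All 6 granulocyte and monocyte markers (median 4.09) and 3 of 4 progenitor markers (1.90) were called larger in the Rpl5 line too. So were 3 of 5 B-lymphoid, 3 of 6 macrophage and 1 of 3 megakaryocyte markers, while 4 of 6 erythroid markers were called smaller (median -1.87). The part of these markers' cells was not tested. Of all genes 20.5% were called larger and 20.9% smaller. The largest differences were those of Npm1 (1.64 ± 0.30 (SE), adjusted p = 0.000849), Nhp2 (1.43 ± 0.26 (SE), adjusted p = 0.000829), Nip7 (1.40 ± 0.26 (SE), adjusted p = 0.000840), Nop16 (1.34), Ncl (1.28) and Gar1 (1.22 ± 0.33 (SE), adjusted p = 0.00903), and Fbl (0.82 ± 0.24 (SE), adjusted p = 0.0145), Nob1 (0.96 ± 0.26 (SE), adjusted p = 0.00966) and Emg1 (0.85 ± 0.17 (SE), adjusted p = 0.00127) differed by less. Members such as Utp4 (-0.02 ± 0.25, SE), Bop1 (0.05 ± 0.25) and Nop2 (0.26 ± 0.21) had intervals that include 0. Across the 44 members the changes of the lines, which share no library, ran in a like order (Pearson 0.67, Spearman 0.68, genes not being independent). 29 rose in both, a count that says little on likeness, since 41 and 30 of the 44 rose in the lines taken alone. Neither the correlations nor this count was computed over all genes, of which 35.3% were called higher in the Rpl5 line and 12.5% in the Rps19 line. The count of 17 members called different moved with single libraries: 11 without Rpl5flox/+ replicate 1 or without VavCre Rpl5flox/+ replicate 3. It was 28 without Rpl5flox/+ replicate 3, which had the highest levels of the factors among the 3 controls.

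In Kit+ cytoplasm the changes were smaller in the Rpl5 line. 16 members rose and none fell, by a median of 0.26 (range -0.08 to 0.69; all genes 0.03), while 20.8% of 10908 genes were called higher and 16.4% lower. The groups did not overlap for 25 members, against 27.6% of all genes. The 16 were 6 of 11 60S factors, 6 of 15 processome members, 2 late 40S factors, Nhp2 and Mybbp1a. No C/D protein was among them.

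Rrp12 rose furthest, with 1089.6, 917 and 1170.03 normalized counts in VavCre Rpl5flox/+ and 611, 629 and 701 in Rpl5flox/+ libraries (0.69 ± 0.10 (SE), adjusted p = 0.000172). Rrp9 had 1172, 1096 and 1233 against 689.6, 839.9 and 796 (0.58 ± 0.09 (SE), adjusted p = 0.000355). Nhp2 had 3699, 3596 and 3355 against 2451, 2495 and 2389 (0.53 ± 0.07 (SE), adjusted p = 6.79e-05). In all 3 the groups were apart. Nip7 had 1749, 1672 and 1754 against 1163, 1352 and 1262 (0.45 ± 0.08 (SE), adjusted p = 0.00101), and Mybbp1a 4001, 4061 and 4262 against 3230.4, 3312 and 3491 (0.30 ± 0.08 (SE), adjusted p = 0.00758). Npm1, Ncl and Fbl were not called. Npm1 had 32508, 30867 and 23537 against 24383, 23800.3 and 15694 (0.46 ± 0.24 (SE), adjusted p = 0.146), with overlap through 1 mutant library. Ncl (0.37 ± 0.28 (SE), adjusted p = 0.331) and Fbl (0.17 ± 0.08 (SE), adjusted p = 0.113) had positive values too.

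In these Kit+ libraries 10 of 11 hepatocyte markers rose (5779 to 18465 against 22332 to 41169, summed) with 4 of 6 granulocyte and monocyte markers, while all 6 erythroid and all 5 B-lymphoid markers fell. Their part in the small rise was not tested. Without Rpl5flox/+ replicate 1, 9 members were called. Of the 99 further pathway genes 17 rose and 2 fell (median 0.13), Ngdn (0.48), Rsl24d1 (0.43) and Utp11 (0.41) most and Pelp1 (-0.37) and Exosc10 (-0.24) in the other direction.

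In Kit+ cytoplasm of the Rps19 line the factors moved in both directions, with falls rarer than over all genes. 24 rose and 6 fell (median 0.32, range -1.20 to 1.29; all genes 0.01), in a comparison where 27.6% of all genes were called higher and 26.1% lower. The groups did not overlap for 24 members that were higher and 6 that were lower, against 31.9% and 29% of all genes. The risers were 8 of 11 60S factors, 8 of 15 processome members, 4 of 6 late 40S factors, Mybbp1a, Nolc1, Fbl and Nop56. The 6 that fell were Ncl, Npm1, Dkc1, Gnl3, Nop14 and Gar1, of which 5 are nucleolar multifunction or snoRNP proteins and Nop14 belongs to the processome.

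Bop1 rose furthest, with 2521, 2136 and 2191 normalized counts against 865, 976 and 929 (1.29 ± 0.09 (SE), adjusted p = 3.28e-07). Mybbp1a had 9082, 7779 and 8506 against 3436, 3759 and 3716 (1.21 ± 0.08 (SE), adjusted p = 1.13e-07). Utp4 had 1815, 2009.6 and 2194 against 936, 964 and 959 (1.06 ± 0.09 (SE), adjusted p = 1.20e-06). In all 3 the lowest mutant library was well above the highest control. Rrp12 had 1652, 1421 and 1419 against 693, 748 and 690.3 (1.06 ± 0.10 (SE), adjusted p = 3.42e-06). Nat10 (1.17), Noc2l (1.03), Nop2 (1.00), Imp4 (0.90) and Rrp9 (0.89) rose by 0.89 or more. Fbl rose by less, 6712, 5691 and 5611 against 4499, 4694 and 4669.9 (0.37 ± 0.08 (SE), adjusted p = 0.00171).

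Ncl fell furthest, with 3239.8, 9323 and 5737 against 14444, 12164 and 11936 in controls (-1.20 ± 0.28 (SE), adjusted p = 0.00276). Npm1 had 8031, 17272 and 14749 against 22187, 22045 and 19899 (-0.75 ± 0.24 (SE), adjusted p = 0.0160). In both the highest mutant library was under the lowest control, and replicate 1 was the lowest of the 3 by far. That library was also the lowest for Dkc1 (336, 1001 and 656 against 1302, 1236 and 1011, -0.94), for Gnl3, the nucleolar GTPase nucleostemin (649.7, 1202 and 1218 against 1673, 1508 and 1467, -0.64), and for Nop14 (298, 602 and 533 against 717, 664 and 666, -0.56). Without it Npm1 was at -0.42 with adjusted p = 0.0608, while Ncl was at -0.81 and still called. Gar1 had 2139, 1842 and 1856 against 2346, 2187 and 2532 (-0.27 ± 0.09 (SE), adjusted p = 0.0175), and there replicate 1 was the highest.

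Here all 6 granulocyte and monocyte markers fell (14391 to 18542 against 3283 to 6999, summed), with all 5 B-lymphoid and all 3 megakaryocyte markers. Of 4 progenitor markers 2 fell (3616 to 4246 against 3116 to 3891) and of 6 erythroid markers 2 fell. Their part in the changes of the factors was not tested. The 99 further pathway genes also moved in both directions, with 47 higher and 13 lower (median 0.22). Rcl1 (1.78), Tbl3 (1.42) and Nol6 (1.20) rose furthest and Esf1 (-1.46), Nol8 (-1.19) and Mphosph10 (-1.10) fell furthest.

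**Figure D4:**
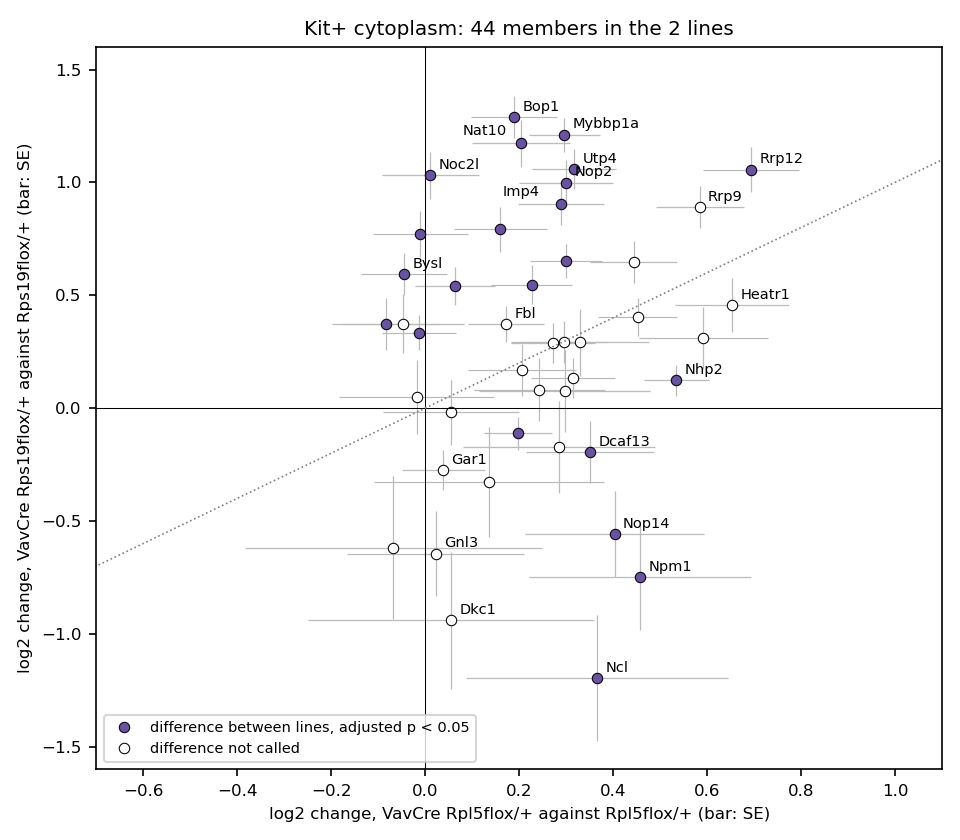
Each point is 1 of the 44 factors, at its log2 change in Kit+ cytoplasm with VavCre Rpl5flox/+ (one axis) and with VavCre Rps19flox/+ (other axis), each against its own controls. The Rps19 changes run from -1.20 for Ncl to 1.29 for Bop1, and the Rpl5 changes from -0.08 to 0.69.

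A direct comparison of the lines in Kit+ cytoplasm gave 22 members with a different change, 6 larger in the Rpl5 line and 16 larger in the Rps19 line (median difference -0.01, all genes 0.04), with 23.2% and 25% of all genes in these classes. All 6 granulocyte and monocyte (median 3.04), all 3 megakaryocyte, 2 of 4 progenitor and 2 of 5 B-lymphoid markers were called larger in the Rpl5 line. So were 1 of 11 hepatocyte and 1 of 6 macrophage markers, while 4 of 6 erythroid markers were called smaller (median -1.08). Their part was not tested. Bop1 (-1.10 ± 0.13 (SE), adjusted p = 3.11e-05), Noc2l (-1.02 ± 0.15 (SE), adjusted p = 0.000114), Nat10 (-0.97 ± 0.15 (SE), adjusted p = 0.000168), Mybbp1a (-0.92 ± 0.11 (SE), adjusted p = 3.00e-05) and Bysl (-0.64 ± 0.13 (SE), adjusted p = 0.00127) rose more with Rps19. Ncl (1.56 ± 0.39 (SE), adjusted p = 0.00532) and Nhp2 (0.41 ± 0.10 (SE), adjusted p = 0.00377) were on the other side, as was Npm1 (1.21). Over the 44 members the changes of the lines had little order in common (Pearson 0.12, Spearman 0.09), and 12 rose in both. Neither was computed over all genes, of which 20.8% were called higher in the Rpl5 line and 27.6% in the Rps19 line.

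**Figure D5:**
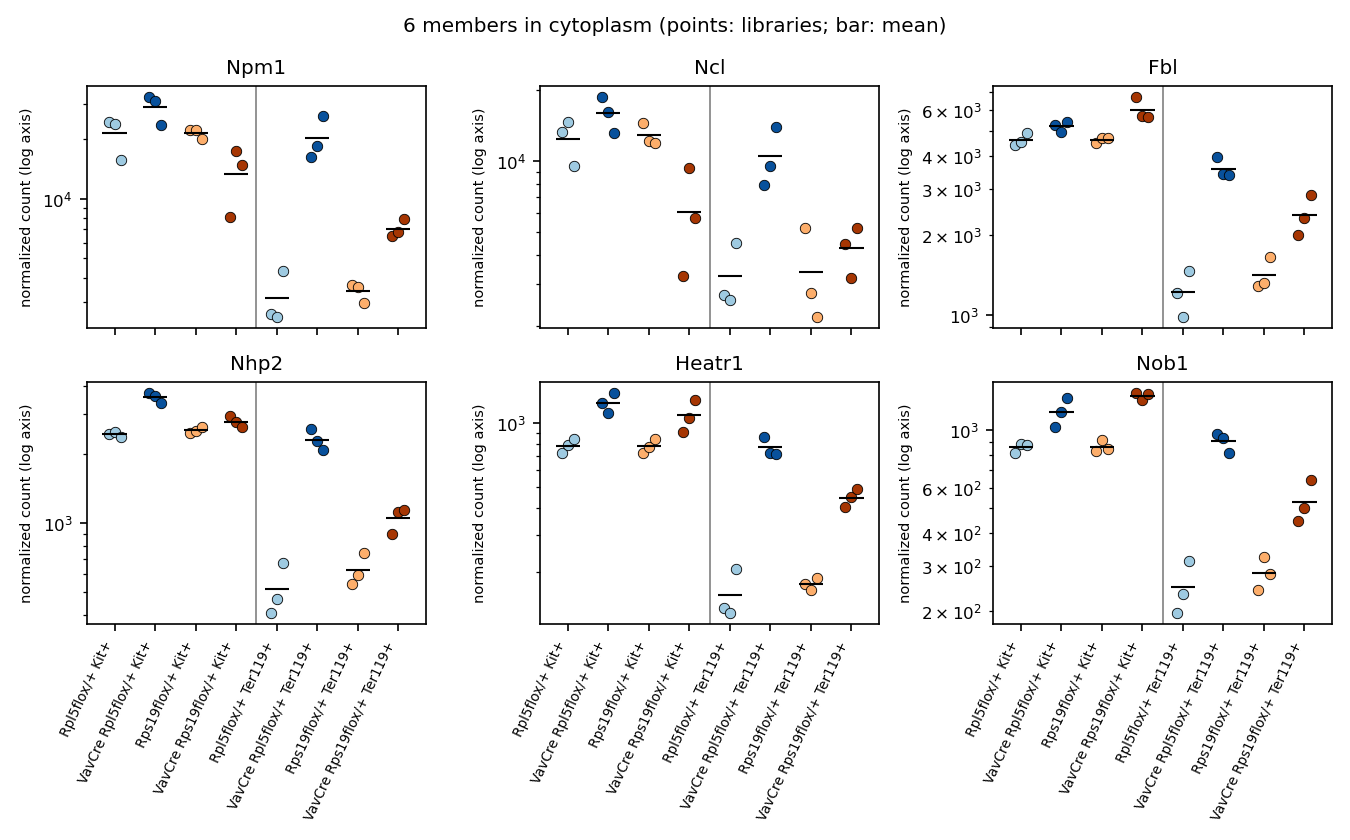
Normalized counts (log axis) of Npm1, Ncl, Fbl, Nhp2, Heatr1 and Nob1 in each cytoplasm library (points) by genotype and cell type, with the mean of each group of 3 as a line. Ter119+ values of all 6 are higher in the libraries labelled VavCre Rpl5flox/+ than in their controls, and Kit+ values of Npm1 and Ncl are lower in VavCre Rps19flox/+ than in Rps19flox/+.

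The step from Kit+ to Ter119+ cytoplasm was then compared between genotypes. Its median over the 44 factors was -1.73 in Rpl5flox/+ and -0.41 with VavCre, and -1.67 in Rps19flox/+ and -1.06 with VavCre. The step was shallower with VavCre in the Rpl5 line for 39 members and deeper for none (median 1.34, all genes 0.10), among 25.8% of all genes called in that direction. In the same fit all 4 progenitor, all 5 B-lymphoid and 4 of 6 granulocyte and monocyte markers were called in that direction too (median changes 1.86, 2.78 and 1.82), and their part was not tested. The Rpl5 label in Ter119+ cells applies here too. Npm1 (2.22 ± 0.34 (SE), adjusted p = 2.24e-05), Rrp9 (2.04 ± 0.32, SE), Nat10 (1.87 ± 0.27) and Mybbp1a (1.57 ± 0.20) had large changes of the step, and Bysl, Noc2l, Dkc1, Gnl2 and Nop14 were not called. In the Rps19 line it was shallower for 12 and deeper for 1 (median 0.57, all genes -0.01), against 3.93% and 8.35% of all genes. There 2 of 4 progenitor and 4 of 5 B-lymphoid markers were called higher and 4 of 6 macrophage markers lower, their part again not tested. The 12 were Npm1 (1.80 ± 0.34 (SE), adjusted p = 0.00326), Ncl (1.61), Gnl3, Gar1, Nhp2, Wdr12, Heatr1, Nop14, Utp20, Wdr36, Wdr43 (1.46) and Wdr75, and Noc2l (-0.50) was the deeper one. With the replicate number as a block, Ncl (adjusted p = 0.0533) and Noc2l (0.0659) were no longer called. Between 4 and 14 members were called when 1 library was left out, the fewest without VavCre Rps19flox/+ Kit+ replicate 1.

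The polysome fraction was compared with cytoplasm of the same pools in controls. In Kit+ cells 12 members were higher on polysomes and 7 lower (median -0.04), while over all genes the median was -1.32, with 7.69% higher and 37.4% lower. Every polysome library of these controls, at 1.01 to 7.17 M reads, was shallower than every cytoplasm one, at 29.3 to 41.7 M. Depth and fraction cannot be told apart here. Fbl had 18148, 17838 and 19990.1 and 23844, 17436 and 15510.3 on polysomes, above every one of its cytoplasm values given before (2.01 ± 0.10 (SE), adjusted p = 1.54e-06). Ncl had 36159, 40989.5 and 32860.00 and 35059.6, 37946 and 35904 (1.54 ± 0.08 (SE), adjusted p = 2.01e-06), and Nhp2 (1.37 ± 0.16), Dcaf13 (1.35 ± 0.23) and Noc2l (0.68 ± 0.15, SE) were also higher. Pno1 was lowest against its cytoplasm, with 44.4, 158 and 0 and 62.3, 47.8 and 0 on polysomes and 943 ± 66.0 and 960.2 ± 44.8 in cytoplasm (-4.69 ± 0.72 (SE), adjusted p = 0.00102). Rescaled by TMM, the median over all genes moved from -1.32 to -1.05 and 16 members were higher and 2 lower. In control Ter119+ cells 4 were higher and 6 lower (median -0.32, all genes -0.66), with 4.81% and 21.9% of all genes. There too every polysome library, at 4.59 to 39.8 M reads, was shallower than every cytoplasm one of the same pools, at 45.0 to 123 M. Nhp2, with 968 and 945 and 1983, 1474 and 1199.5 on polysomes, was higher (1.21 ± 0.23 (SE), adjusted p = 0.00423), as was Emg1 (0.62 ± 0.18, SE). Dkc1, with 119.8 and 25.1 and 98.7, 89.8 and 138, was lower (-2.61 ± 0.41 (SE), adjusted p = 0.00180), as were Gnl2 (-1.96 ± 0.64), Nop58 (-1.90 ± 0.49) and Ddx21 (-0.83 ± 0.25, SE). The call was lost for Gnl2 with TMM (adjusted p = 0.0983), with voom (0.1003), with log2 of the normalized count plus 1 (0.1002) and without the filter (0.128), for Nop58 without the filter (0.0638), and for Ddx21 with TMM (0.177).

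On Ter119+ polysomes, 16 members were higher in the libraries labelled VavCre Rpl5flox/+ and none lower (3 libraries against 2). Over the 44 the median was 1.49 (range -2.55 to 3.86) while that of all genes was -1.0, and 2.96% of 10614 genes were called higher and 10.3% lower. For 29 members the groups did not overlap, against 11.2% of all genes. Fbl had 16573, 9989.9 and 12912 against 1122 and 1365 (3.36 ± 0.53 (SE), adjusted p = 0.00133) and Npm1 24432, 22140.3 and 16932 against 3039 and 1500.1 (3.28 ± 0.38 (SE), adjusted p = 0.000190). Both were several-fold apart. Rrp12 had 2205, 1313 and 2771 against 168 and 91.0 (3.86 ± 0.70 (SE), adjusted p = 0.00328), the largest change, and Dcaf13 (2.80 ± 0.53 (SE), adjusted p = 0.00414), Gar1 (2.28 ± 0.49 (SE), adjusted p = 0.00872) and the 60S factor Ebna1bp2 (1.91 ± 0.40 (SE), adjusted p = 0.00854) were called as well. All 16 were among the 41 of 44 members that had risen in cytoplasm of the same line, so this overlap was close to fixed in advance. Polysome and cytoplasm libraries of 1 pool are not independent either. All 6 erythroid markers fell (2.13e+07 to 4.62e+07 against 4.51e+06 to 9.06e+06, summed) and 4 of 6 granulocyte and monocyte markers rose (4046 to 5668 against 36057 to 88530), and their part in the result was not tested. With either control library left out 4 were called, the lone control being assumed to vary like the other groups. Rpl5 itself was 547, 409.6 and 6334 against 110.2 and 226 here, against the label.

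On Kit+ polysomes of the Rps19 line 1 member rose and 4 fell (median 0.13, all genes 1.11), with 6.19% of 10557 genes higher and 3.68% lower. Every control library was shallower than every mutant one, at 1.01, 7.17 and 1.83 M reads against 10.8, 24.4 and 37.6 M. Lars2 had 9.03e+06, 1.42e+06 and 1.33e+07 normalized counts in these controls and 473501, 50953 and 35663 in the mutants. Depth and genotype cannot be told apart here. In 7 members every mutant library was above the controls and in 9 every one was below, against 35.7% and 9.38% of all genes. Fbl had 6097, 5759.99 and 6049.7 in VavCre Rps19flox/+ and 23844, 17436 and 15510.3 in Rps19flox/+ libraries (-1.64 ± 0.18 (SE), adjusted p = 0.000626), although it rose in cytoplasm. Ncl had 13109.5, 13601 and 8924 against 35059.6, 37946 and 35904 (-1.63 ± 0.18 (SE), adjusted p = 0.000693). Each was under every control library. Gar1 (-0.94 ± 0.22 (SE), adjusted p = 0.0257) and Nolc1 (-0.87 ± 0.22 (SE), adjusted p = 0.0343), a chaperone of snoRNPs, fell less. The call of Gar1 was lost with TMM (adjusted p = 0.0691).

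Pno1 was the one that rose, with 855, 979 and 1066 against 62.3, 47.8 and 0 (4.89 ± 1.36 (SE), adjusted p = 0.0499), while its cytoplasm level was not called (0.08 ± 0.14 (SE), adjusted p = 0.639). One control library had 0 reads of it and the call was lost with log2 of the normalized count plus 1 (adjusted p = 0.125), with TMM (0.0611) and with the replicate block (0.0902). Imp4, at 1448, 1614 and 1758 against 0, 356 and 212, was just short of the threshold (4.23 ± 1.20 (SE), adjusted p = 0.0529). The count of called members was 3 with TMM, and 2 when any 1 of the VavCre Rps19flox/+ libraries was left out. Leaving out the libraries under 2 M reads takes away 2 of the 3 controls. The 1 control left was then assumed to vary like the other groups, and 11 members were called, 6 higher and 5 lower.

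The ratio of polysome to cytoplasm with VavCre Rps19flox/+ in Kit+ cells was lower for 3 members and higher for 1 (median -0.30, all genes 1.19), with 5.81% of all genes higher and 2.7% lower. The same shallower control polysome libraries enter this ratio, and the part of their depth was not tested. Fbl fell furthest (-2.01 ± 0.19 (SE), adjusted p = 0.00103), with Nolc1 (-1.42 ± 0.25 (SE), adjusted p = 0.0157) and Nat10 (-1.50 ± 0.36 (SE), adjusted p = 0.0388) also lower and Pno1 higher (4.81 ± 1.18 (SE), adjusted p = 0.0395). The call of Nat10 was lost with TMM (adjusted p = 0.0645) and with voom (0.0907), and that of Pno1 with TMM (0.0514) and with log2 of the normalized count plus 1 (0.102). Without the pools whose polysome library was under 2 M reads, which leaves 1 Rps19flox/+ pool, Nolc1 (0.0589) and Nat10 (0.0777) were not called. Without Rps19flox/+ replicate 2, 7 members were called, and without VavCre Rps19flox/+ replicates 1, 2 or 3 there were 2, 1 and 1.

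On Ter119+ polysomes of the Rps19 line no member was called by limma (median 0.92, all genes 0.51). Every control library was shallower than every mutant one, at 12.6, 16.1 and 4.59 M reads against 33.6, 20.5 and 29.6 M. Depth and genotype cannot be told apart in this comparison. An unadjusted p under 0.05 was seen for 8 of 44 members and for 1449 of all 10614 genes. Of all genes 0.226% were called higher and 0.575% lower. The groups did not overlap for 22 members, against 23% of all genes. For example, Npm1 had 7830.4, 7780.4 and 11646 against 3653, 4312 and 6696 and Utp4 516, 554 and 857 against 247, 107 and 118, changes of 0.91 ± 0.34 and 1.99 ± 0.62 (SE), and both sets were apart. The ratio of polysome to cytoplasm in Ter119+ cells, which uses the same shallower control polysome libraries, was called for no member, with 0.00918% of all genes called in each direction. Here 4 of 44 members and 1114 of all 10898 genes had an unadjusted p under 0.05. With voom on recovered reads, chosen after seeing the data, 1 member was called on these polysomes, and 2 when the 1 Ter119+ polysome library under 2 M reads, of the Rpl5 line and only part of the shared fit, was left out.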

How the data were processed

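The authors deposited log2 values that, per the values themselves, are variance-stabilised read counts scaled by a size factor for each library. The submitters' processing notes name the build mm10. An aligner, a counting tool and a strand setting were not given in the sources used here. Inverting the transformation gave whole reads for 100% of values (tolerance 1e-06, largest deviation 3.17e-07), and the lowest log2 value, 2.92, stands for 0 reads.

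The log2 values were tested by limma (version 3.58.1, R 4.3.3) with a trended eBayes, two-sided, over genes whose mean normalized count reached 10, and p-values were adjusted over all of them by Benjamini-Hochberg with a threshold of 0.05. The method was tested on simulated data. Genotypes of 1 cell type and fraction shared a fit, and fractions of 1 pool were blocked. Kit+ and Ter119+ libraries were compared without a block for livers that may have given both, except in the alternative with a replicate block. The planned log2 of the normalized count plus 1 became an alternative, as did other scaling, other filters, a replicate block, left-out libraries and voom on recovered reads. Tables were handled with Python 3.11.15, pandas 2.3.3 and numpy 2.4.6.

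P-values measure the spread between these pools, which may be technical, and with 3 against 3 an exact permutation test cannot go under 0.10. For the Rpl5 line in cytoplasm, deviations of libraries of like replicate number correlated at 0.134 to 0.305 in every pair. There the block gave 17 called members in Kit+ and 42 in Ter119+ cells. The highest correlation, 0.363, was that of replicate 1 of the Rps19 line in Ter119+ cytoplasm, whose other pairs were at 0.0081 and 0.051. Pairs of the remaining comparisons lay between -0.038 and 0.069.

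The members and lists were chosen with earlier results of these data known. Named members are Npm1, Ncl and Fbl, the member with the smallest adjusted p of each role, and the largest change in each direction among those called, with values per library in the cytoplasm comparisons and for some of those on polysomes. Any member could be named, with up to 3 other pathway genes in each direction by size of change (mean normalized count of at least 50).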

Additional observations from a re-analysis of the deposited data

Results flagged for a closer look

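The change with VavCre differed between the Rpl5 and Rps19 lines in Kit+ cytoplasm for 22 of the 44 factors by a test of the difference itself, while 23.2% of all genes were called larger and 25% smaller, so the count is near the share over all genes. Ncl was at 1.56 and Bop1 at -1.10 on the log2 scale, as the Rpl5 change minus the Rps19 change. In Ter119+ cytoplasm the lines differed for 17 factors, Npm1 being at 1.64, with libraries labelled VavCre Rpl5flox/+ whose Rpl5 level goes against the label. All 17 were larger in the Rpl5 line, and of all genes 20.5% were called larger and 20.9% smaller.

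The step from Kit+ to Ter119+ cytoplasm differed with VavCre for 39 factors in the Rpl5 line, where Npm1 was at 2.22, against 25.8% of all genes called shallower and 22.6% deeper. It differed for 13 in the Rps19 line, where Npm1 was at 1.80 and Noc2l at -0.50, against 3.93% and 8.35% of all genes. The Noc2l call was lost under TMM scaling (adjusted p = 0.0508) and with a replicate block (0.0659), and Noc2l overlaps Samd11, an abundant mRNA of Ter119+ cells. No explanation was tested for these differences.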

How the results depend on the processing

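The planned edgeR and DESeq2 fits were not run, since the deposited values are on a log2 scale. The voom fit was added after seeing the data. For Rpl5 in Ter119+ polysomes the members' median was 1.88 with a replicate block, with voom and without the shallow library. For Rps19 in Kit+ polysomes, 3 members were called with TMM, 3 with the block and 11 with voom (median 0.033). Without libraries under 2 M reads 11 were called (median 0.033), but 1 control library was left there, assumed to vary like the other groups. For Rps19 in Ter119+ polysomes voom called 1 member, and 2 were called without the shallow library of the Rpl5 line, which shares the fit. Under TMM the median of polysome against cytoplasm was 0.27 in Kit+ and -0.017 in Ter119+ controls, where 6 members were called without the filter. For the Rps19 ratio in Kit+ cells TMM called 2 members, and the median was -0.19 with TMM, -0.53 with voom and -0.40 without shallow libraries, which left 1 control pool. In Ter119+ cells the ratio's median under TMM was -0.21 (0.09 as deposited). TMM moved the median over all genes by 0.27 and 0.28 in the fraction comparisons and by -0.24 in that ratio. Without Lars2 and mitochondrially encoded mRNAs the summed share of the factors was 1.18% in Rpl5flox/+, 1.49% in VavCre Rpl5flox/+, 1.30% in Rps19flox/+ and 1.09% in VavCre Rps19flox/+ Kit+ polysomes, 1.08% in Rps19flox/+ Kit+ cytoplasm, and 0.447% in Ter119+ polysomes labelled VavCre Rpl5flox/+. The cause of these moves was not tested.

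With 1 library left out, the called members ranged from 9 to 15 for Rpl5 in Kit+ cytoplasm, 41 to 42 in Ter119+ cytoplasm and 4 to 23 in Ter119+ polysomes (median 1.51 to 1.88), where 1 control remained for the lowest. For Rps19 they ranged from 24 to 35 in Kit+ cytoplasm, 26 to 30 in Ter119+ cytoplasm and 2 to 7 in Kit+ polysomes, where the median ran from -0.021, without Rps19flox/+ replicate 1, to 0.13. The difference between the lines gave 17 to 23 in Kit+ (median -0.13 to 0.048) and 11 to 28 in Ter119+ cytoplasm (0.51 to 0.85). Polysome against cytoplasm gave 12 to 17 in Kit+ controls and 3 to 8 in Ter119+ controls. The Rps19 ratio in Kit+ cells gave 1 to 7 (median -0.45 to -0.22). The change of the step gave 36 to 40 for Rpl5 (median 1.21 to 1.55) and 4 to 14 for Rps19. The replicate block otherwise moved no count of called members by more than 1.5 times, and gave 24 for the difference in Ter119+ cytoplasm.

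Of 100 tested changes of named members, 7 lost their call under TMM, 2 under voom, 3 under log2 of the count plus 1 and 2 without the filter. The block was run for 84 of them and ended 3 calls, and leaving out shallow libraries was run for 27 and ended 2. Leaving out 1 library in turn ended a call in 69 of 833 fits. None reversed. Polysome libraries with 1.01 M reads limit members with few reads, such as Pno1, Imp4 and Ltv1.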
